A study of Mus musculus with 4 samples.

Results

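A stretch of mouse chromosome 1 from 85 to 88 Mb (mm9) held 676 of the 30047 peaks listed for 4 ChIP-seq libraries. Its members are all listed peaks that start in this window. They number 224 for Dzip3 (of 6482 listed), 200 for Ring1B (of 10119), 136 for ubH2A (of 6642) and 116 for input DNA (of 6804). The window was chosen by its density of peaks in these same lists, and the counts and densities below are therefore a description. The libraries come from E14 mES cells, a mouse embryonic stem cell line of strain 129/Ola at passages 3 to 5. All cells grew without feeders in medium with LIF at 1000 U/ml, the MEK inhibitor PD0325901 at 1 μM and the GSK3 inhibitor CHIR99021 at 3 μM, and were fixed for 10 min in 1% formaldehyde. Chromatin was precipitated with antibodies against Dzip3, Ring1B or ubiquitylated H2A (ubH2A), or kept as input DNA. There was 1 library for each, so no difference between libraries has a replicate error, no p-value was computed, and the intervals given cover counting error or the spread between peaks.

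Ring1B and Dzip3 are RING-type ubiquitin ligases for histone H2A, and Ring1B is the catalytic subunit of Polycomb repressive complex 1, whose mark is ubH2A. In ES cells Polycomb complexes are known for binding GC-rich promoters of developmental genes. The window carries the Sp100 gene cluster, whose members Sp100, Sp110 and Sp140 encode nuclear body proteins with SAND and chromatin-binding domains, together with a long array of partial copies of these genes, whose number is known to differ between mice. Such an array is hard to assemble, and a reference sequence can hold fewer copies than the genome of a cell.

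The reference sequence of the window contained 1 gap of 2000000 bases, at chr1:85343679-87343678, so that only 1000000 of its bases, 33.3%, are known. The gap split the window into a block of 343679 bases below it and a block of 656321 bases above it. Of the 224 Dzip3 peaks, 154 lay below the gap and 70 above it, and of the 200 Ring1B peaks 129 and 71. The ubH2A and input lists break off in the block below the gap, at 85281399 and 85242601, and past these positions only the reads counted in Dzip3 and Ring1B peaks are available.

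To show what lies under these peaks, 200 bases from the middle of selected Dzip3 peaks are given with the matching bases of another Dzip3 peak across the gap. Peaks were linked when they shared at least 50% of the words of 31 bases of the peak with fewer words, counted on either strand. A family is a chain of such links, so its peaks can match different parts of a longer peak without sharing sequence with each other. Families 1, 2 and 3 are taken from the families of the largest size, 4 peaks, in order of their highest RPM. Family 4 was tied with family 3. Capitals mark bases that differ between the copies of a family.

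The family 1 copies lie at chr1:85257054-85257253 on the plus strand, within C130026I21Rik, and at chr1:87506490-87506689 on the minus strand, within Sp140 and an exon of Gm10552. They differed at 1 base.

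Family 1, below the gap: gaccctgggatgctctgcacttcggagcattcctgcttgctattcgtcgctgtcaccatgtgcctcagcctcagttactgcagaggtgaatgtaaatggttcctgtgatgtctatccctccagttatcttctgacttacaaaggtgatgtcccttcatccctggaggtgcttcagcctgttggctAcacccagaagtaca
Family 1, above the gap: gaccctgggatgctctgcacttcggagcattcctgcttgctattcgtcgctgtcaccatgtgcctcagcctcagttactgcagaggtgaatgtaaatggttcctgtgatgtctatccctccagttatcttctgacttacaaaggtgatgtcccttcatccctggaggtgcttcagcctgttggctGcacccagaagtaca

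The family 2 copies, at chr1:87505611-87505810 on the plus strand in an intron of Sp140 and at chr1:85257933-85258132 on the minus strand in an intron of C130026I21Rik, were identical over all 200 bases, and the sequence is therefore shown for the copy above the gap only.

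Family 2, above the gap: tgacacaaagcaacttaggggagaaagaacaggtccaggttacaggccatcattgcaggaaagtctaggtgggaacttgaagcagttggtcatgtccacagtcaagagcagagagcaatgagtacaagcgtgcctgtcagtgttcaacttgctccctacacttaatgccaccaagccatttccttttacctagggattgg

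The family 3 copies, both read on the plus strand, lie at chr1:85206065-85206264 in introns of C130026I21Rik and Gm7609 and at chr1:87443187-87443386 in an intron of Gm7592. They differed at 3 bases. The copy below the gap belongs to the peak with the highest Dzip3 to input ratio of the window.

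Family 3, below the gap: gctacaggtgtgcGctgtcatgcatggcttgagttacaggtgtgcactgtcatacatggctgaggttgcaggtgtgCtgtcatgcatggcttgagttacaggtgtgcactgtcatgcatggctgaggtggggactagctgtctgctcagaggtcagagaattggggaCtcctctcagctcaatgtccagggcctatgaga
Family 3, above the gap: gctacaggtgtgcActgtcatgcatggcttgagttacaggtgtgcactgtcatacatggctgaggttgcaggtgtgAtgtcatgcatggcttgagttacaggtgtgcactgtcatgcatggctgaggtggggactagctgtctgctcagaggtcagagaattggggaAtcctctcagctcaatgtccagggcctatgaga

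In family 3 the letters CAGGTGTG, searched on both strands, recurred 4 times in each of these 200 bases. At least 1 such match was present in 16 of the 224 Dzip3 peaks of the window (7.14%) and in 2.91% of the Dzip3 peaks elsewhere. At least 4 matches were found in 4 peaks of the window and in 15 of 6257 elsewhere. These letters were picked after the sequence had been read, and a match is a description only.

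A different kind of sequence lay under the Ring1B peak with the highest ratio to input, at chr1:87942503-87943444. Its central 200 bases, chr1:87942873-87943072 on the plus strand, are in an exon of 2810459M11Rik, and the capitals mark the CG dinucleotides, of which there are 31.

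Ring1B, highest ratio: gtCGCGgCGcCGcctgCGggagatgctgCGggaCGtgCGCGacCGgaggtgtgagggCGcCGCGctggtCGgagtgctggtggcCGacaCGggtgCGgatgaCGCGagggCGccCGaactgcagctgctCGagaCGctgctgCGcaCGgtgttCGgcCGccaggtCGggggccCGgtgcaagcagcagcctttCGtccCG

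The array under the peaks consisted almost entirely of repeated sequence. Of the words of 31 bases in the Dzip3 peaks of the window, 92.6% occurred more than once in mm9, 74.4% occurred again within the window and 90.6% also on contigs not placed on a chromosome. In Dzip3 peaks elsewhere 61.7% of words occurred more than once, and of every 1000th word of chromosome 1 15.2%. The Ring1B peaks gave 91.7% in the window and 37.4% elsewhere. Of the 224 Dzip3 peaks, 90 had no word that was found only once in mm9, and 43 had none on the assembled chromosomes. The share of all Dzip3 peaks without such a word was not computed, so these 2 counts are a description only. The study gives its depth in uniquely mapped reads, without a read length, and that depth is lower than the library sizes implied by the listed values, so it is not known how reads with several places in mm9 were counted. The part of read placement in these counts was not tested.

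The repeated sequence filled the block below the gap, where 90.8% of words occurred more than once, and ended inside the block above it. From the gap to the end of the last Dzip3 peak, at 87550208, the share was 85.5%, and from there to 88 Mb it was 10.8%. In bins of 10 kb it was 76.2% around 205 kb above the gap, 44.3% around 215 kb and 13% around 225 kb. Dzip3 peaks stopped within this stretch. The last one, at chr1:87550008-87550208, lay near the 5′ end of Sp100 (chr1:87546563-87606573), and no further Dzip3 peak was listed before chr1:88275862-88276169. The map of peaks and repeated words shows this boundary about 207 kb above the gap.

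**Figure D1:**
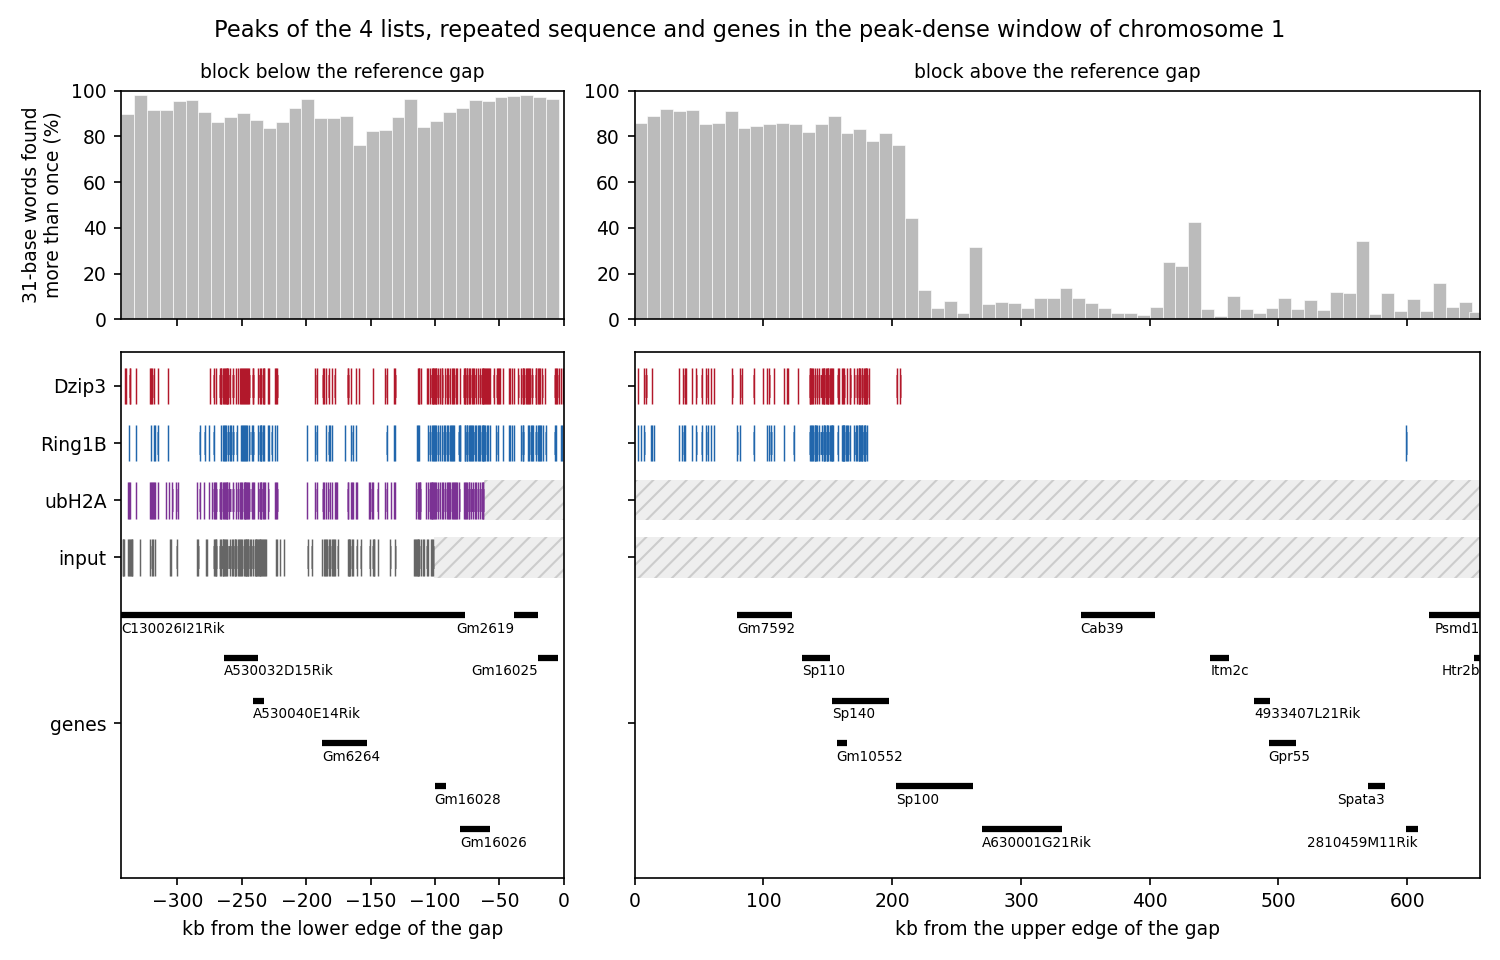
Peaks, repeated sequence and genes in the window, with distance in kb from the lower and the upper edge of the reference gap on the x axes. The upper panels give the share of words of 31 bases found more than once in mm9 for bins of 10 kb, and the lower panels give each peak of the 4 lists as a tick, with hatching where the ubH2A and input lists are not analysed, and protein-coding genes and other genes with more than 5 Dzip3 peaks as bars. Dzip3 peaks fill the stretches with high shares and end where the share drops, whereas 1 Ring1B peak stands alone about 599 kb above the gap.

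Below the gap there were 44.8 Dzip3 and 37.5 Ring1B peaks for each 100 kb, and Dzip3 peaks covered 18.6% of the bases. Over the whole block above the gap the figures were 10.7 and 10.8, and on the rest of chromosome 1 they were 0.181 and 0.286. All 70 Dzip3 peaks above the gap lay within 207 kb of it, so in the array there the density was higher than 10.7. The median distance between the centres of neighbouring Dzip3 peaks was 1.26 kb (95% interval of the median 1.06 to 1.45 kb), against 147 kb for the Dzip3 peaks elsewhere, and 41.0% of the distances were under 1 kb, against 10.3%. The longest distance between Dzip3 neighbours on the same side of the gap was 32.7 kb. The densest 100 kb lay from 85.2 to 85.3 Mb with 61 Dzip3 and 53 Ring1B peaks. Its 51 ubH2A peaks are an incomplete count, since that list breaks off inside this stretch, at 85281399. A later cluster from 87.4 to 87.5 Mb held 35 Dzip3 and 33 Ring1B peaks. Merging peaks closer than 1 kb left 92 Dzip3 and 89 Ring1B intervals.

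The lower edge of the window cuts through the array. The last Dzip3 peak before it, at chr1:84991596-84991849, had 75 Dzip3 and 18 input reads, and the first inside it, at chr1:85003220-85003420, had 68 and 26. Between 84 and 85 Mb the lists held a further 14 Dzip3, 11 Ring1B, 18 ubH2A and 23 input peaks, nearly all of them close to the edge.

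In the median peak the Dzip3 reads were about as high as elsewhere and the input reads were higher. Levels are given as reads per kb of peak, scaled to 1 M reads of the library, and ratios as scaled reads over scaled input reads with 1 read added to each. Dzip3 peaks of the window had a median Dzip3 level of 6.44, with all values between 4.35 and 13.3, and those elsewhere 6.01. No Dzip3 peak was listed below a height of 0.619 RPM, so like Dzip3 levels are in part set by the listing. The median input level was 3.12 (95% interval 2.90 to 3.47) in the window and 0.653 (0.621 to 0.693) elsewhere, a ratio of 4.77, and on the rest of chromosome 1 it was 0.558. This ratio of medians does not hold for sums, since 16 peaks elsewhere carry 96.0% of the input reads elsewhere. With summed reads over summed lengths it was 0.0446, and 1.09 without these peaks. No Dzip3 peak of the window was without input reads, whereas 417 of 6258 elsewhere were. Nor was any in the dense stretches of chromosome 8 (19 to 20 Mb, 203 Dzip3 peaks) and chromosome 6 (47 to 48 Mb, 74 Dzip3 peaks).

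The median Dzip3 to input ratio of the 224 peaks was 2.18 (95% interval 2.01 to 2.37), against 8.32 (7.98 to 8.61) for the Dzip3 peaks elsewhere and 9.85 on the rest of chromosome 1. In all, 128 of the 224 peaks, 57.1%, had a ratio of at least 2, which 83.1% of all Dzip3 peaks reached. A ratio of at least 5 was found for 13 (63.8% of all Dzip3 peaks), of at least 10 for 1 (41.6%) and below 1 for 6 (5.48%). For Ring1B peaks the median Ring1B to input ratio was 2.06 (1.92 to 2.27) in the window and 14.2 elsewhere. Of these 200 peaks, 105 reached a ratio of at least 2, as did 89.7% of all Ring1B peaks, and 13 a ratio of at least 5 (78.1%). Dzip3 peaks of the window that touched no input peak had a median ratio of 3.73, and those that did had 1.86. Elsewhere the medians were 11.6 and 1.64. Input peaks are called from the input reads that divide the ratio, so this order is built in.

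**Figure D2:**
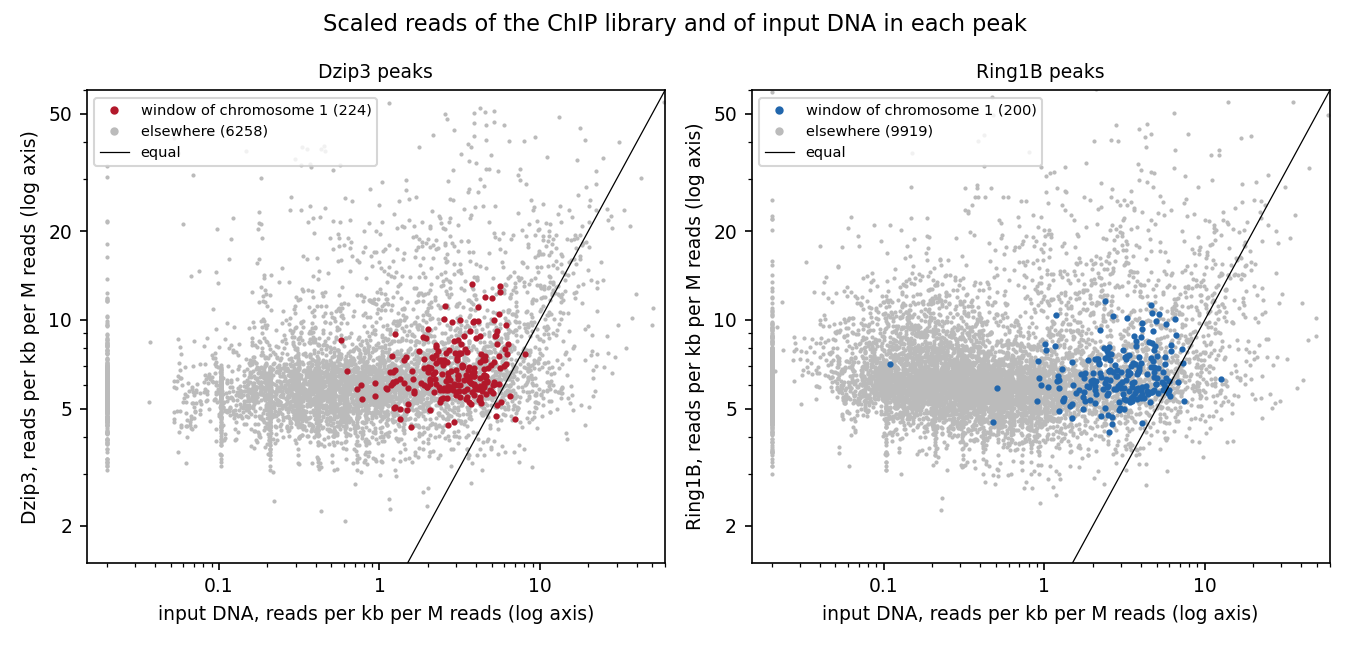
Scaled reads of the ChIP library on the y axis and of input DNA on the x axis, both in reads per kb per M reads on log axes, for each Dzip3 peak and each Ring1B peak. Coloured points are the 224 and 200 peaks of the window, grey points are all others, and the line marks equal levels. Peaks with input below 0.02 are drawn at 0.02, and 47 Dzip3 and 44 Ring1B peaks, none of them of the window, lie beyond the axes. The coloured points sit at the same height as the grey ones, all being peaks that passed a height floor. They are closer to the line, apart from 1 Ring1B peak at the left.

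All 3 ChIP libraries had nearly the same level in the Dzip3 peaks of the window. The median Ring1B level was 5.71 and the median ubH2A level 5.80, against 4.25 and 3.28 in Dzip3 peaks elsewhere, and the medians of their ratios to input were 1.76 and 1.87, against 4.67 and 3.60. Dzip3 had the highest of the 4 scaled levels in 130 of the peaks (58.0%, against 67.8% elsewhere), ubH2A in 49 (21.9% against 8.71%), Ring1B in 40 (17.9% against 18.8%) and input DNA in 5 (2.23% against 4.62%). In a dense array on chromosome 8, from 19 to 20 Mb, ubH2A was the highest in 47 of 203 Dzip3 peaks (23.15%). In a cluster on chromosome 6, from 47 to 48 Mb, it was the highest in 0 of 74. In the Ring1B peaks of the window Dzip3 was the highest in 75, Ring1B in 70 and ubH2A in 51, while in Ring1B peaks elsewhere Ring1B was the highest in 78.4%. Across the 224 peaks, which share libraries and in part sequence, Spearman's rho between Dzip3 and Ring1B levels was 0.53, and across the Dzip3 peaks elsewhere 0.54. Between Ring1B and ubH2A levels it was 0.68 in both. With input levels it was 0.15 for Dzip3 and 0.37 for ubH2A in the window, and 0.29 and 0.61 elsewhere.

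Both sides of the gap gave like values. These sides share sequence, with peaks on both in 30 of the 41 families of like sequence, so they are not independent sets. The median Dzip3 to input ratio was 2.22 (1.92 to 2.42) for the 154 peaks below it and 2.15 (1.88 to 2.44) for the 70 above it, and the median input levels were 3.10 and 3.35. Over bins of 100 kb the median ratio ranged from 1.77, in the lowest bin, to 3.03, in the bin next to the upper edge of the gap, which held 12 peaks. With all reads summed, the scaled Dzip3 to input ratio was 2.13 (95% Clopper-Pearson interval 2.09 to 2.17), from 36542 Dzip3 and 15525 input reads. On sums the order is not that of the medians, since the same ratio was 0.419 for the Dzip3 peaks elsewhere, which include the peaks with very many input reads, and 6.69 on the rest of chromosome 1.

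**Figure D3:**
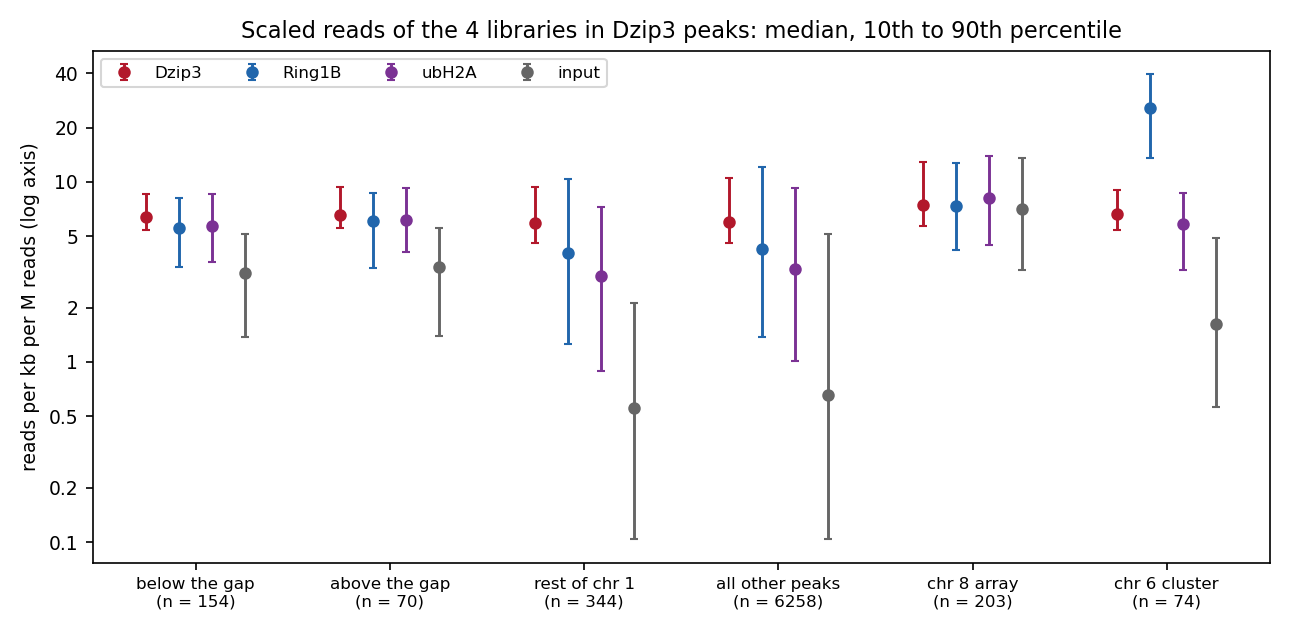
Scaled reads of the 4 libraries in Dzip3 peaks, in reads per kb per M reads on a log axis, as the median with a bar from the 10th to the 90th percentile over the peaks. The groups are the peaks of the window below and above the gap, the rest of chromosome 1, all Dzip3 peaks outside the window, which include the last groups, and the peak clusters of chromosome 8 (19 to 20 Mb) and chromosome 6 (47 to 48 Mb). The Dzip3 level is alike in all groups, whose peaks all passed the height floor of the Dzip3 list. The input level of the window lies between that of the chromosome 6 cluster and that of the chromosome 8 array.

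Other peak-dense stretches differed from the window in both directions. In the array on chromosome 8 from 19 to 20 Mb, with 203 Dzip3 peaks, the median input level was 7.06 and the median Dzip3 to input ratio 1.18 (1.09 to 1.27). In the cluster on chromosome 6 from 47 to 48 Mb, with 74 Dzip3 peaks, the ratio was 3.63, and Ring1B had the highest level in all 74. The interval covers only the spread between peaks of 1 Dzip3 and 1 input library, so it does not test a difference from the window. Both stretches were chosen for their density as well.

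Peaks of the 4 libraries mostly coincided in the window. With a minimum of 1 bp, Ring1B peaks were met by 160 of the 224 Dzip3 peaks, or 71.4% (95% Wilson interval from 65.2% to 76.9%), against 51.6% of all Dzip3 peaks. A ubH2A peak overlapped 91.1% (49.6% of all) and an input peak 76.3% (26.6% of all). Overlap with peaks of each of the other 3 libraries was found for 125 of them, 55.8%, against 21.3% of all Dzip3 peaks, and 216 overlapped a peak of any other library, against 63.3% of all. From the side of Ring1B, 81.5% of the 200 peaks overlapped a Dzip3 peak (32.5% of all Ring1B peaks), 90% a ubH2A peak (33.2%) and 77% an input peak (16.2%). Dzip3 and Ring1B peaks together made 257 intervals, of which 156 held both, 64 Dzip3 only and 37 Ring1B only. Such overlap was not particular to the window. Of the Dzip3 peaks in the chromosome 8 array, 88.7% overlapped a Ring1B peak, 97.5% an input peak and 87.2% peaks of each of the other 3 libraries. In the chromosome 6 cluster these shares were 100%, 52.7% and 50%. Below the gap Dzip3 peaks covered 18.6% of the bases, so an overlap of 1 bp is likelier there than where peaks are sparse. The overlap that peak density alone would give was not computed.

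The strongest Dzip3 peak by RPM, the height in extended reads for each 1 M reads, lay in an intron of Gm16026 at chr1:85276853-85277382 and reached 2.67 RPM. It held 367 Dzip3, 243 Ring1B, 344 ubH2A and 143 input reads, a Dzip3 to input ratio of 2.32 (95% Clopper-Pearson interval 1.91 to 2.84, for the reads as counted). The next was the longest Dzip3 peak of the window, 2368 bp over an exon of Sp110 at chr1:87487683-87490051. Its 1497 Dzip3, 1210 Ring1B, 1733 ubH2A and 571 input reads gave a ratio of 2.37 (2.16 to 2.62). Both peaks were thus high in every library, input DNA included.

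Of the other 3 among the 5 strongest, the peak at chr1:85256710-85257599 in C130026I21Rik had 565 Dzip3 and 196 input reads. The peak at chr1:85244022-85244553 in introns of C130026I21Rik and Gm16028 had 285 and 65, and the peak at chr1:87505499-87505923 in introns of Sp140 and Gm10552 had 300 and 77. Their ratios were 2.61, 3.93 and 3.50, all above the median of the window and below that of the Dzip3 peaks elsewhere. The Ring1B peak at almost the same place as the second of them, chr1:85244066-85244580, was the strongest Ring1B peak by RPM, at 2.72, with 309 Ring1B and 59 input reads.

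The other strong Ring1B peaks were also shared. Those at chr1:85270088-85270527 in Gm16026, chr1:87487703-87490066 over Sp110 and chr1:87523561-87524053 in Sp140 had Ring1B to input ratios of 2.42, 2.00 and 1.92. The peak at chr1:85303452-85303856, between genes, had 218 Ring1B and 23 input reads and a ratio of 8.51 (5.74 to 14.2), and it overlapped a Dzip3 peak of family 3. The 3 strongest ubH2A peaks, at chr1:85272981-85273955, chr1:85244015-85244964 and chr1:85250822-85252181, had ubH2A to input ratios of 2.25, 2.62 and 1.56. Of the 3 strongest input peaks, those at chr1:85082852-85085503 and chr1:85086082-85087789 lay over A530032D15Rik, with 642 and 383 input reads, and that at chr1:85158692-85159275 in Gm6264, with 142.

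Peaks with the highest and the lowest ratios differed in their input reads more than in their ChIP reads. The lowest listed heights were 0.619 RPM for Dzip3 and 0.599 RPM for Ring1B, and input reads in these peaks had no such floor. This contrast is therefore built into the lists and is no separate result. The highest Dzip3 ratio, 13.5 (7.83 to 31.4), belonged to the family 3 peak at chr1:85205986-85206344, with 163 Dzip3, 95 Ring1B, 134 ubH2A and 10 input reads. The next were chr1:87508318-87508581 at the start site of Gm10552, with 94 Dzip3 and 8 input reads and a ratio of 9.57, and another family 3 peak, chr1:85028280-85028649, with 115 and 13 reads and a ratio of 7.51. At the other end was chr1:87523275-87523575 in an intron of Sp140, with 74 Dzip3 and 102 input reads and a ratio of 0.660 (0.481 to 0.896). The lowest Ring1B ratio was 0.504, at chr1:85084863-85085108 over A530032D15Rik, with 80 Ring1B and 149 input reads.

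Copies of the same sequence on both sides of the gap were called as peaks. Families of like sequence took in 101 of the 224 Dzip3 peaks, 45.1% of them (95% Wilson interval from 38.7% to 51.6%), in 41 families, of which 30 had peaks on both sides. There were 6 families of 4 peaks, 7 of 3 and 28 of 2. Within a family the highest Dzip3 to input ratio was a median of 1.5 times the lowest, and at most 2.89 times. Most families are pairs, and peaks of a family may match different parts of a longer peak, so this spread cannot be set against that of all 224 peaks. The 224 ratios went from 1.30 at the 10th to 4.52 at the 90th percentile. Since copies cannot be told apart by most of their sequence, the reads of copies are not independent measurements.

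The 4 peaks of family 1 had 186, 489, 565 and 368 Dzip3 reads and ratios of 3.14, 3.13, 2.61 and 2.16. Those of family 2 had 62, 87, 199 and 300 Dzip3 reads and ratios of 1.47, 2.42, 3.42 and 3.50. The peaks in family 3 had 115, 163, 138 and 87 Dzip3 reads over 13, 10, 23 and 10 input reads, and ratios of 7.51, 13.5, 5.25 and 7.25. All 4 of the latter were above the 90th percentile of the window, on both sides of the gap. In family 4, neighbouring peaks in Sp140, at chr1:87517540-87518031 and chr1:87518097-87518385, had ratios of 2.15 and 0.848. They lie side by side and may match different parts of the longest peak of the family, chr1:85085999-85087835. These neighbours are therefore not taken as copies of each other. Among the 13 families of 3 or 4 peaks, 4 had every peak at or above the median of the window. In 1 family every peak was below it, and 8 had peaks on both sides of it.

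**Figure D4:**
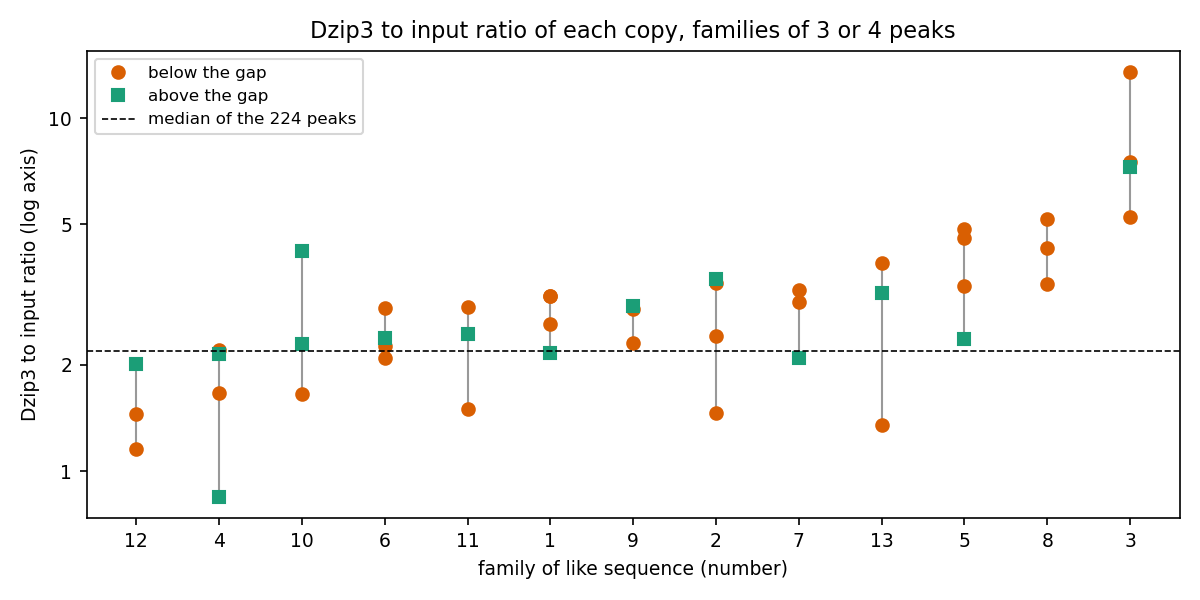
Dzip3 to input ratio on a log axis for each peak in the 13 families of 3 or 4 Dzip3 peaks, ordered by their median. Peaks of a family are linked by shared words and need not all be copies of the same bases. Circles are peaks below the gap and squares are peaks above it. Grey lines join the lowest and the highest peak of a family, and the dashed line is the median of the 224 peaks, 2.18. Family 3 stands highest with ratios of 5.25 to 13.5, and circles and squares are mixed.

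Of 39 annotated genes in the window, 22 contained a Dzip3 peak and 21 a Ring1B peak, and 15 of the former and 14 of the latter are on the list of the Sp100 family and its copies. The share of all annotated genes that contain a peak was not computed, so these counts are a description only. The gene with most peaks was C130026I21Rik, a long annotated gene at chr1:84989265-85267141 that spans much of the lower array, with 104 Dzip3 and 86 Ring1B peaks. It was followed by Sp140 (chr1:87496953-87541612) with 23 and 25, Gm16026 with 23 and 23, the longer of the annotated A530032D15Rik genes with 23 and 19, Sp110 (chr1:87473474-87495392) with 17 and 17, the shorter A530032D15Rik gene with 16 and 14, Gm2619 with 15 and 11 and Gm6264 with 11 and 8. Several of these genes overlap, so a peak can count for more than 1 of them. Sp100 itself, whose protein is a component of PML nuclear bodies, held 2 Dzip3 peaks and no Ring1B peak.

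Gene by gene, the Dzip3 to input ratio varied. In the genes with most peaks the medians were 1.83 for the Dzip3 peaks in Sp140, 1.88 in Sp110, 2.22 in C130026I21Rik, 2.38 in Gm16026 and 1.60 in the longer A530032D15Rik gene. Within C130026I21Rik the ratios ran from 0.923 to 13.5. Genes with few peaks could be higher, such as Gm7582 with a median of 4.82 over 3 peaks, Gm7609 with 7.56 over 2 and Gm2666 with 4.87 for 1. The 2 peaks of Sp100 had ratios of 2.90 and 3.81. Counted per 10 kb, Gm16026 carried 9.94 Dzip3 peaks, the longer A530032D15Rik gene 8.59, Sp110 7.76, Sp140 5.15 and Sp100 0.333.

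Of the listed Sp100 family members and copies, 17 annotated genes lay in the window, of which 15 contained a Dzip3 peak and 14 a Ring1B peak. The exceptions were Gm2389 and Gm2635, with neither, and Sp100, with no Ring1B peak. None of the 3 neighbouring genes of general function in the window, Cab39, Itm2c and Psmd1, contained a peak of either list, nor did the 3 genes of restricted expression, Gpr55, Htr2b and Spata3. With so few genes the counts of the general and the restricted genes are near the background given next. That background is for protein-coding genes with a peak in the gene or within 10 kb, and does not apply to the Sp100 family and copies. In the list of restricted genes Nppc and Ecel1, outside the window, held 1 and 4 Ring1B peaks. Among the 15 protein-coding genes of the window, 6 had a Dzip3 peak in the gene or within 10 kb (40%), against 11.7% of all protein-coding genes, and 6 a Ring1B peak, against 20% of all. The window was chosen for its peak density, so shares above this background are built in. Both counts include C130026I21Rik and both annotated A530032D15Rik genes, which lie within it and share its peaks. Within 100 kb of a TSS the numbers of protein-coding genes were 7 and 11. No share of all protein-coding genes was computed for this distance, so the background above does not apply to it. Gpr55, Spata3, 2810459M11Rik, Psmd1 and Htr2b are among the 11 through 1 and the same Ring1B peak, the CG-rich one.

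Peaks fell on exons of these genes as well as introns. Exons held 29.9% of the Dzip3 peaks, by at least 1 base, and 7.23% of the sequenced bases of the window. Introns without exon overlap held 58.0% of the peaks, and 12.1% were intergenic. A TSS of any gene lay within 1 kb of 48 Dzip3 peaks (21.4%) and 51 Ring1B peaks (25.5%). These shares are not on the same footing as those of bases, since a peak is wider than 1 base. The exon, intron and TSS shares over all Dzip3 and Ring1B peaks were not computed, so those of the window are a description only.

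The Ring1B peaks of the window had a lower median GC content than those elsewhere, 47.9% against 55.7%, with a narrower range from the 10th to the 90th percentile, 43.2% to 52.1% against 42.5% to 67.2%. Dzip3 peaks had medians of 47.2% and 49.8%. The median number of CG dinucleotides per 100 bases was 0.875 in the Ring1B peaks of the window and 1.96 in those elsewhere, and in Dzip3 peaks 0.826 and 0.830. The sequenced bases of the whole window had a GC content of 44.4%.

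The Ring1B peak whose CG-rich sequence is printed above differed from the array in its input, Dzip3 and ubH2A reads, ratio and base composition, but not in its Ring1B level or height, 1.06 RPM. It lay at the TSS of 2810459M11Rik, with its centre 419 kb above that of the preceding Ring1B peak, and the following one was listed at chr1:88357355-88357904. The CG-rich peak held 346 Ring1B, 42 Dzip3, 53 ubH2A and 5 input reads. Its Ring1B to input ratio was 54.0, or 64.6 (95% Clopper-Pearson interval 27.4 to 200.1) without the added read. Its Ring1B level was 7.10, beside a median of 6.28 and a range from the 10th to the 90th percentile of 5.29 to 8.30 for the Ring1B peaks of the window, whereas its input level was 0.110, its Dzip3 level 0.838 and its ubH2A level 0.840. The GC content was 69.4%, with 10.5 CG per 100 bases, and all of its words of 31 bases occurred only once in mm9, which held for no other Ring1B peak of the window. No peak of another library was listed there. The Ring1B peak with the next highest ratio, chr1:85206030-85206317, reached 10.3 and lay on the family 3 copy with the highest Dzip3 ratio.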

How the data were processed

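ChIP-seq was done on 3 targets and input DNA, with 1 library each. Reads were aligned by the authors to mm9 (Illumina Analysis Pipeline, 1 mismatch allowed), and peaks were called for each library in the Partek Genomics Suite (FDR 0.1). The deposited lists hold counts of the reads of all 4 libraries in each peak, the largest number of extended reads, the height in RPM, and the percent of each peak covered by peaks of the other libraries. Deposited p-values and fold values against input were not used. The labels describe shearing with a Picoruptor, the paper micrococcal nuclease.

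Library sizes, 53.3 M (Dzip3), 51.8 M (Ring1B), 67.0 M (ubH2A) and 48.3 M reads (input DNA), were computed as extended reads over RPM. They exceed the depth in uniquely mapped reads that the paper's methods give. A row without 18 fields was left out of the ubH2A and of the input list. Overlaps with ubH2A and input peaks were read from the deposited percentages. Genes came from GENCODE vM1. Words of 31 bases were counted over all of mm9, unplaced contigs included, and copies were aligned with edlib 1.3.9.post1. Medians have 95% order-statistic intervals, and peaks that share sequence make them too narrow. The window, the gene lists and the comparisons were chosen with earlier results of these data known. Peaks named are the 5 highest by RPM and the 3 highest by ratio with at least 50 reads in the Dzip3 and Ring1B lists. The 3 highest by RPM in the other lists and those at the edges are also named. Peaks with the lowest ratio and those of families 1 to 4 were chosen after their values were seen. Genes named are the 8 with most peaks, those with a Ring1B peak within 1 kb of a TSS, and the lists. Functions were tested on simulated data. Peak lists hold no expression values, so the cell type could not be checked. Alternatives were merged peaks, stronger peaks, input-overlapping peaks left out, shifted windows, other scalings and pseudocounts, stricter overlaps, other gene distances and other thresholds for families. Calculations ran in Python 3.11.15 (numba 0.67.0, numpy 2.4.6, scipy 1.17.1, pandas 2.3.3, matplotlib 3.10.9).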

Additional observations from a re-analysis of the deposited data

How the results depend on the processing

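With 1 library for each target no value has a replicate error, and depth limits a peak's ratio through its input reads. No paired analysis was possible because each target has 1 library. The 224 Dzip3 and 200 Ring1B peaks became 92 and 89 when peaks closer than 1 kb were merged, 141 and 122 among the 50% of peaks with the higher RPM, 53 and 46 without input-overlapping peaks, and 73 and 72 with the window moved up by 0.5 Mb, which drops most of the lower block. The median Dzip3 to input ratio in Dzip3 peaks, Ring1B to input ratio in Ring1B peaks and ubH2A to input ratio in Dzip3 peaks rose to 3.73, 3.78 and 3.30 without input-overlapping peaks. Leaving out such peaks selects on the input reads that divide these ratios, so the rise is built in. Relative to the median peak elsewhere the ratios were 0.263, 0.145 and 0.518. Unscaled, the Dzip3 and ubH2A ratios were 2.41 and 2.59, and among the 50% of Dzip3 peaks with the higher RPM the Dzip3 ratio was 2.38. The ratio of median input levels, 4.77, was 5.58 against the rest of chromosome 1, 0.0446 with summed reads and, in an alternative added after seeing the data, 1.09 with summed reads and without 16 peaks of over 5000 input reads. The share of Dzip3 peaks overlapping a Ring1B peak was 62.3% without input-overlapping peaks. Protein-coding genes with a Ring1B peak numbered 11 within 100 kb of a TSS. Merging raised the median distance between Dzip3 peaks to 4.29 kb. The share of Dzip3 peaks in families was 17.4% with at least 80% of words shared and 69.6% with at least 20%. The other 23 of 48 alternative values stayed within the interval, or within 1.5 times the count, of the value reported, among them those with another pseudocount, without the densest 100 kb and with stricter overlaps.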
